A study of Mus musculus with 20 samples.

Results

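Many mouse genes are transcribed into several annotated RNAs that differ in their start site, exons or end, and the share that each of these transcripts takes of its gene's RNA can move while the gene's total stays where it was. The transcripts described here were those of genes with at least 2 annotated transcripts and a mean gene level of at least 5 TPM (transcript abundance scaled for transcript length and library total) over the 10 inguinal white adipose tissue (iWAT) libraries of mice fed the high-fat diet (HFD). The rule took 41881 transcripts of 7104 genes, of 96533 transcripts deposited. For each, the share was its TPM as a percentage of the summed TPM of its gene in the same library, so a gene that rose or fell as a whole with all its transcripts in proportion had an unchanged share. Ad-Tmem120a-/- mice were compared with control littermates by these shares alone.

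All mice were female, labelled C57BL/6, 6 months old, and had eaten their diet for 15 weeks, HFD with 58% fat or a low-fat diet (LFD) with 10.5% fat, and each of the 4 groups held 5 libraries. Both genotypes carried floxed Tmem120a alleles (Tmem120a fl/fl), in which loxP sites flank exons 2 and 3. Per the study's methods, the floxed line was on a C57BL/6 N Tac background and the Cre line on C57BL/6 J. Substrain differences linked to the Cre transgene therefore cannot be told apart from genotype, whereas the floxed allele was shared by both genotypes. The Ad-Tmem120a-/- mice also carried Cre recombinase under the Adiponectin promoter, which acts in adipocytes and leaves the gene intact in the other cells of the depot, and the controls, labelled wild type, carried no Cre, so loss of Tmem120a and carriage of the Cre transgene cannot be told apart here. RNA was depleted of ribosomal RNA and sequenced with strand kept, which also captures unspliced and partly spliced RNA. The HFD comparison set control libraries 11 to 15 against knockout libraries 17 to 21, and the LFD libraries, which share no animal with it, were a separate comparison of the same transcripts.

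The total of estimated counts per library ranged from 64760384 to 92387737 on HFD and from 54605101 to 75022219 on LFD. White adipocyte markers (10 genes, all detected) summed to between 21600 and 34900 TPM in the HFD libraries. Markers of skeletal muscle fibres (15 genes) summed to between 47.7 and 129 TPM in control HFD libraries and between 120 and 1950 TPM in knockout HFD libraries (two-sided exact permutation test, p = 0.0159), and to between 74.7 and 4350 TPM in control LFD libraries against 73.4 to 1340 TPM in knockout LFD libraries (p = 0.865). Epithelial, macrophage, endothelial and lymphocyte marker sums did not pass the same test between the HFD groups (p of 0.397 or more). In bulk tissue, fewer cells of a type and less RNA per cell cannot be told apart.

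Splicing joins exons after the introns between them are removed, and a transcript that keeps an intron, skips an exon or starts elsewhere can encode another protein or none. Annotation sorts transcripts into classes by this outcome. Protein-coding transcripts have an open reading frame, those with retained introns hold intron sequence, and those marked for nonsense-mediated decay stop early and are usually degraded. In adipose tissue alternative first exons give the 2 forms of Pparg, the master transcription factor of fat cells, and alternative exons of tropomyosin and pyruvate kinase genes mark tissue-specific forms. TMEM120A, also called NET29, is a membrane protein of the nuclear envelope with several membrane-spanning helices and is abundant in fat.

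The exons on which the Tmem120a result turns are shown first. They are taken from the mouse genome build NCBIM37 (mm9), minus strand of chromosome 5, and written 5′ to 3′. Exon 2 of the main transcript (ENSMUST00000043378) lies at chr5:136218151-136218269 and exon 3 at chr5:136217836-136217952. Both are coding and floxed, and together they hold 236 bases, a length that leaves a remainder of 2 on division by 3. The floxed segment of the genome also holds the intron between them. The short transcript (ENSMUST00000141779) starts at chr5:136212460, inside intron 7 of the main transcript, and its first 88 bases (chr5:136212373-136212460) are intron sequence that the main transcript does not hold. Capitals mark the exon in the first 2 sequences, with 10 bases of each neighbouring intron in lower case, and the 88 intron bases in the third sequence.
Tmem120a exon 2: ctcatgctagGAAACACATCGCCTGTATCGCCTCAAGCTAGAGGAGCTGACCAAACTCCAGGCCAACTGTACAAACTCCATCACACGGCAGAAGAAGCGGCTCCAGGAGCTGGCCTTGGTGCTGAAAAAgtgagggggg
Tmem120a exon 3: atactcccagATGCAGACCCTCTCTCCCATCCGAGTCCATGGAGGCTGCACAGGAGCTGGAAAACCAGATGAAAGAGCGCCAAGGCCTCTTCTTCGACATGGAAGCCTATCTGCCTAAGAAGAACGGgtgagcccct
First exon of the short transcript: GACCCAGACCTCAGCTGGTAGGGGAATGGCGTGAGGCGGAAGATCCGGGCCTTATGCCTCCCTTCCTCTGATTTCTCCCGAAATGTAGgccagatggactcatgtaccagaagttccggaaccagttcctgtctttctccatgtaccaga

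Tmem120a had 4 annotated transcripts, and in knockout HFD libraries the short one took 45.3% of its TPM on average, against 53.6% for the main one. In estimated counts, which are not divided by transcript length, the means in these libraries were 949 for the short and 2060 for the main transcript. The main transcript (12 exons, 1382 bases, 1029 of them coding) took 95.7%, 99.1%, 97.3%, 95.2% and 100% of Tmem120a TPM in the control HFD libraries and 45.8%, 70.5%, 63.1%, 49.5% and 39.0% in the knockout HFD libraries. Every knockout library lay below every control library. The mean fell from 97.5% ± 2.08 (SD, n = 5) to 53.6% ± 12.9 (SD, n = 5), a difference of -43.9 percentage points (limma, adjusted p = 0.01992; two-sided exact permutation test, p = 0.00794, the smallest that 252 assignments can give). The short transcript has 5 exons and 679 bases, lies at chr5:136211374-136212460, has no annotated reading frame and belongs to the retained-intron class. Its share was 3.84%, 0%, 2.66%, 0% and 0% in the control HFD libraries and 52.3%, 29.5%, 36.9%, 48.8% and 59.0% in the knockout HFD libraries. Here too the groups did not overlap, and the mean rose from 1.3% ± 1.83 to 45.3% ± 11.9, by 44.0 points (limma, adjusted p = 0.01495).

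On LFD, in other animals, the same pair of Tmem120a transcripts moved the same way. The main transcript took 86.1%, 98.0%, 98.7%, 98.2% and 96.7% in control libraries and 68.0%, 48.9%, 49.3%, 36.0% and 68.4% in knockout libraries (difference of -41.4 points; limma, adjusted p = 0.07089). The short transcript took between 0% and 2.86% in control LFD libraries and between 30.6% and 49.4% in knockout LFD libraries (difference of 40.2 points, adjusted p = 0.005408). The genotype effect did not differ detectably between the diets for either (interaction term in limma, unadjusted p = 0.5683 for the main and 0.5868 for the short transcript).

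The short transcript overlaps exons 8 to 12 of the main one, with 591 shared bases, and holds 0 bases of exons 2 and 3. Summed over transcripts that hold all of exon 2, the share was 98.7% ± 1.86 in control and 54.7% ± 11.9 in knockout HFD libraries. Only the main and the short transcript hold all of exon 9, and together they took 98.8% and 98.9%. As the other transcripts stayed low, that sum could hardly differ between the groups, and no conclusion is drawn from it. Of the 4 Tmem120a transcripts 3 hold bases of exon 2 or 3, and none of these 4 joins exon 1 to exon 4 without them. The other Tmem120a transcripts stayed low, at 1.2% in control and 1.13% in knockout HFD libraries for ENSMUST00000127156 and at or near 0% for ENSMUST00000153399.

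Behind these shares, the level of the main transcript was 116 ± 41.8 TPM in control and 25.2 ± 7.53 TPM in knockout HFD libraries. The level assigned to the short transcript was 2.11 ± 3.29 TPM and 25.7 ± 18.7 TPM in the same groups, so its assigned mean was higher in TPM as well as in share. Of its 679 bases 591 are shared with the main transcript, and RNA lacking only exons 2 and 3 has no annotated transcript of its own. Whether reads of such RNA were assigned to the short transcript was not tested. Summed over transcripts, the gene level was 119 ± 44.5 TPM in control and 51.6 ± 26.7 TPM in knockout HFD libraries (exact permutation test, p = 0.0159), resting on 1761 to 15572 estimated counts per library. TPM divides by transcript length, which raises a 679-base transcript against a 1382-base one. With shares of estimated counts instead, the differences were 27.8 points for the short and -27.9 points for the main transcript, and both passed the test. The test on estimated counts in edgeR, which compares each transcript with the rest of its gene, called neither (adjusted p = 0.1749 for the short and 1.0 for the main transcript), and the call for the main transcript was also lost without knockout HFD library 20 (adjusted p = 0.114).

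**Figure D1:**
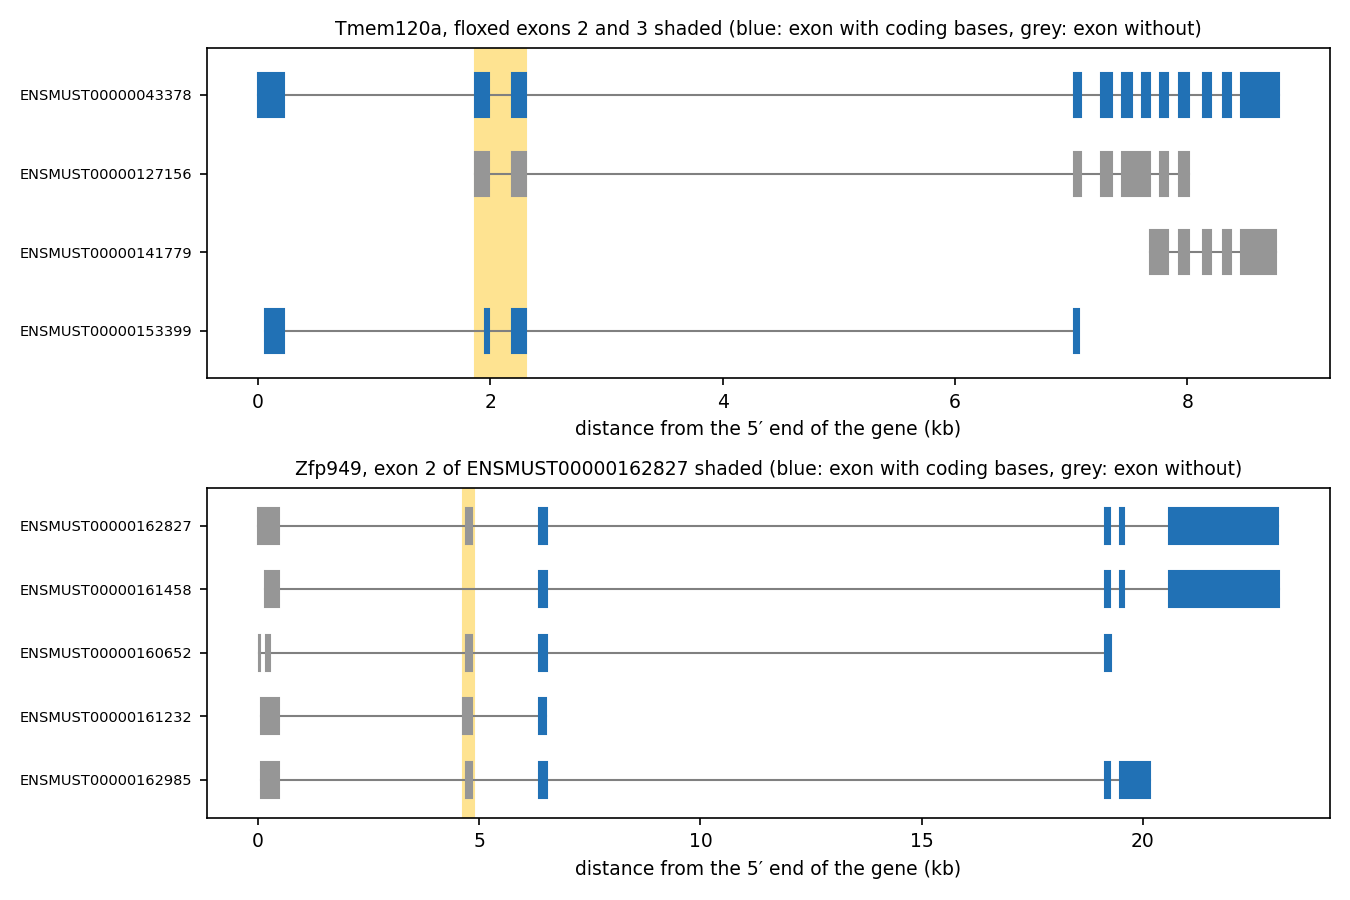
Exon structures of the 4 Tmem120a and 5 Zfp949 transcripts against the distance from the 5′ end of the gene (kb), with exons as boxes (blue with coding bases, grey without), introns as lines, and shading over the floxed exons of Tmem120a and over the second exon of Zfp949. The short Tmem120a transcript covers only the last exons of the main transcript, and the Zfp949 transcript ENSMUST00000161458 lacks the 146-base second exon of ENSMUST00000162827.

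Zfp949, a zinc finger gene on the plus strand of chromosome 9 (chr9:88442858-88465924), was the other gene with a called transcript. Of its 5 transcripts 4 hold a second exon of 146 bases (chr9:88447554-88447699), and ENSMUST00000161458 lacks it. This exon lies before the start codon, and ENSMUST00000161458 and ENSMUST00000162827, which holds the exon, share an identical reading frame of 1809 bases. In control HFD libraries 11 to 15 the transcript without the exon took 2.97%, 0%, 3.07%, 28.6% and 7.36% of Zfp949, and in knockout HFD libraries 17 to 21 it took 59.6%, 76.5%, 60.5%, 68.9% and 69.3%. It was the leading transcript in every knockout library and in no control library. The mean rose from 8.39% ± 11.6 (SD, n = 5) to 67% ± 7.01 (SD, n = 5), by 58.6 points (limma, adjusted p = 0.08918; exact permutation test, p = 0.00794).

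On LFD its share was 14.5%, 0%, 6.49%, 4.39% and 0% in controls and 63.9%, 63.4%, 75.7%, 89.1% and 77.5% in knockouts, again without overlap (difference of 68.9 points, limma, adjusted p = 0.01505, interaction unadjusted p = 0.2876). ENSMUST00000162827 took the opposite course, at 63.6% ± 7.96 in control and 14.7% ± 6.75 in knockout LFD libraries (adjusted p = 0.03456). On HFD it took 53.3%, 48.4%, 79.6%, 11.3% and 30.6% in controls and 25.4%, 1.9%, 20.5%, 18.6% and 0% in knockouts, which overlapped and did not pass the test (difference of -31.4 points, adjusted p = 0.9935). The short transcript ENSMUST00000160652 (574 bases) averaged 36.9% in control and 3.76% in knockout HFD libraries, with control values from 0% to 61.9%, and did not pass either (adjusted p = 0.9935).

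The Zfp949 gene level on HFD was 13.3 ± 4.64 TPM in control and 13.9 ± 1.94 TPM in knockout libraries (exact permutation test, p = 0.611), so on this diet the share moved with no detectable change of the total. On LFD the total was 8.1 ± 2.13 TPM in control and 17 ± 2.44 TPM in knockout libraries. The HFD values rested on 1040 to 2577 estimated counts per library, and the HFD call was close to its threshold. It held without control HFD library 14 (adjusted p = 0.0175), the control with the 28.6% share, and was lost without any 1 of the other 9 libraries (adjusted p from 0.117 to 0.438), while the difference stayed between 56.2 and 63.6 points. It was also lost with shares of estimated counts (difference of 62.9 points, adjusted p = 0.718).

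**Figure D2:**
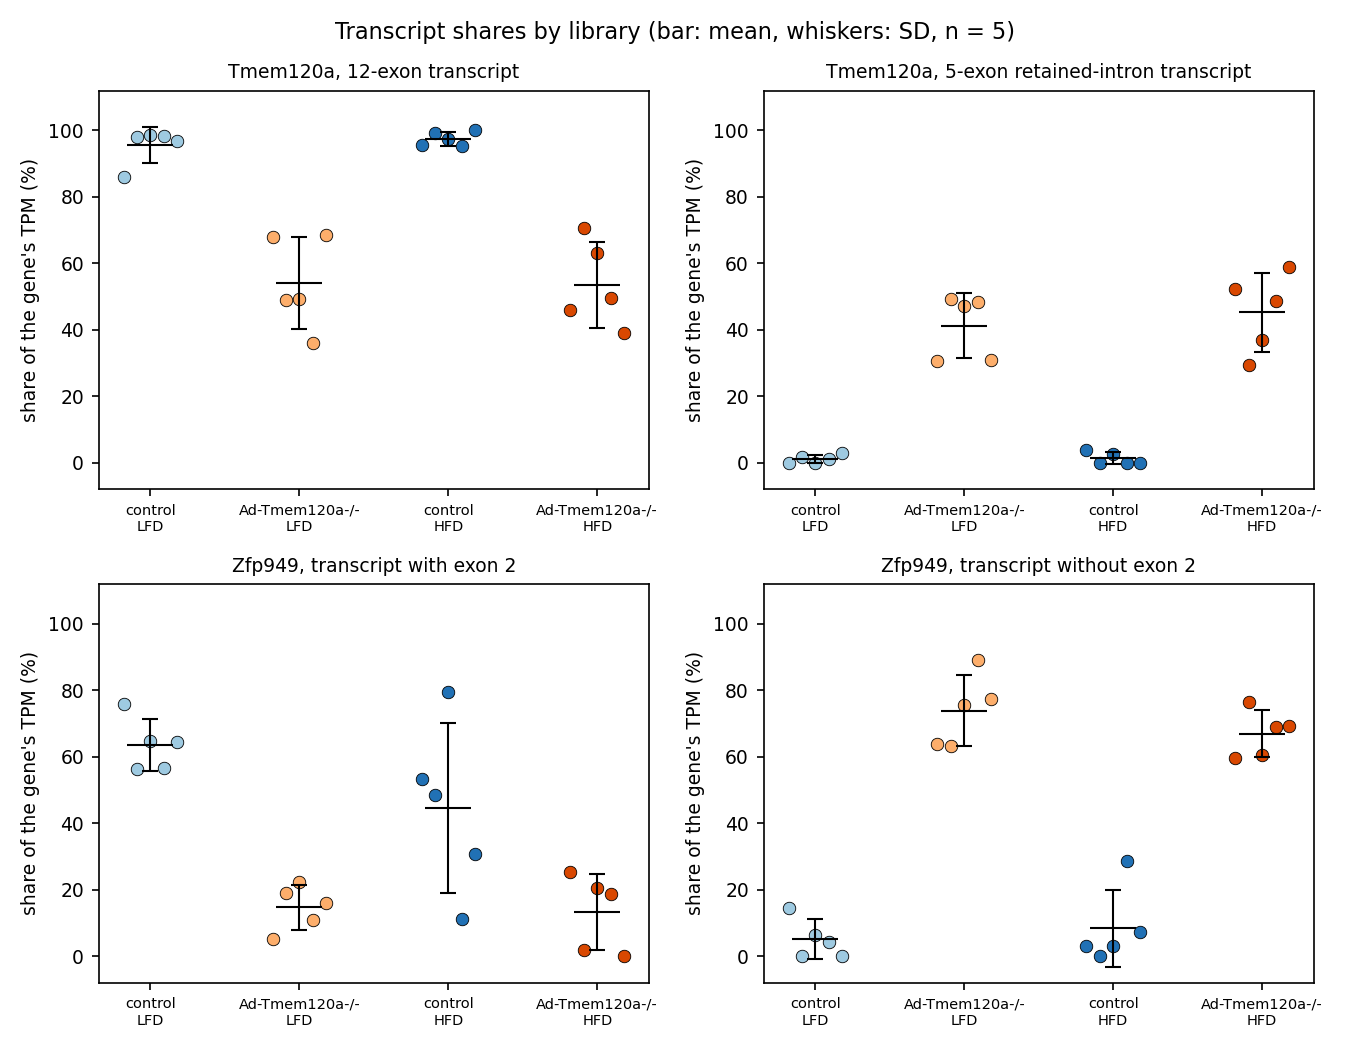
Share of gene TPM in percent for the 2 Tmem120a transcripts and the 2 Zfp949 transcripts in each of the 20 libraries, with points for libraries, bars for group means and whiskers for the SD (n = 5). The short Tmem120a transcript and Zfp949 ENSMUST00000161458 sat higher in every knockout library than in any control library on both diets.

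No neighbouring gene had a called transcript. Within 1 Mb of Tmem120a, 33 transcripts of 12 other genes were tested, and none had groups without overlap on HFD. Within 1 Mb of Zfp949, 17 transcripts of 6 other genes were tested. Among the latter 1 had groups without overlap on HFD, a nonsense-mediated decay transcript of Snx14, a sorting nexin gene (ENSMUST00000126405, 3.31% in control and 10.4% in knockout HFD libraries, 3.21% and 11.9% on LFD), and it did not pass the test.

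Across the whole set, these were the only transcripts called on HFD. A mean share between 5% and 95% over the HFD libraries was required for testing, which left 17954 transcripts of 5992 genes. Of the others, 4206 were at 0 in all 10 HFD libraries, 18607 had a mean share above 0% and under 5%, 1110 had one above 95%, and 4 had too few libraries with the gene at 1 TPM or more. With limma at an adjusted p under 0.1, 3 transcripts of 2 genes were called on HFD (0.0167% of those tested) and 4 on LFD (0.0224%), namely the same 3 and Zfp949 ENSMUST00000162827. At an unadjusted p under 0.05 there were 660 on HFD, 3.68% of those tested. Groups did not overlap for 121 transcripts of 108 genes on HFD (0.674%), 57 of them higher and 64 lower in knockouts, and for 126 on LFD (0.705%). The test of the genotype effect on HFD against that on LFD called 0 of 17937 transcripts (0%) in limma, with 555 at an unadjusted p under 0.05, and edgeR called 101. On HFD edgeR called 37 transcripts (0.206%), none of them among the 3 of limma, and 35 of the 37 were at exactly 0 in 4 or more HFD libraries.

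Of the transcripts that did not overlap on HFD, 63 of 121 differed in the same direction on LFD. Over the 17866 transcripts measured in both comparisons, which share no library, 54.7% differed in the same direction and the differences had a Pearson r of 0.107 and a Spearman rho of 0.113. These describe transcripts, many from the same gene, and not independent replicates. Groups without overlap on both diets were found for 4 transcripts, and the only one outside Tmem120a and Zfp949 was a retained-intron transcript of Stxbp3a, which encodes a syntaxin-binding protein of vesicle docking. Its share (ENSMUST00000138552) was 5.47%, 4.82%, 5.63%, 4.75% and 5.62% in control and 7.19%, 9.64%, 5.67%, 9.14% and 7.58% in knockout HFD libraries. On LFD it was 8.28% ± 1.17 and 13% ± 0.899. The knockout values were higher by small margins, and neither difference passed the test (adjusted p = 0.9935 on HFD and 0.9682 on LFD).

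**Figure D3:**
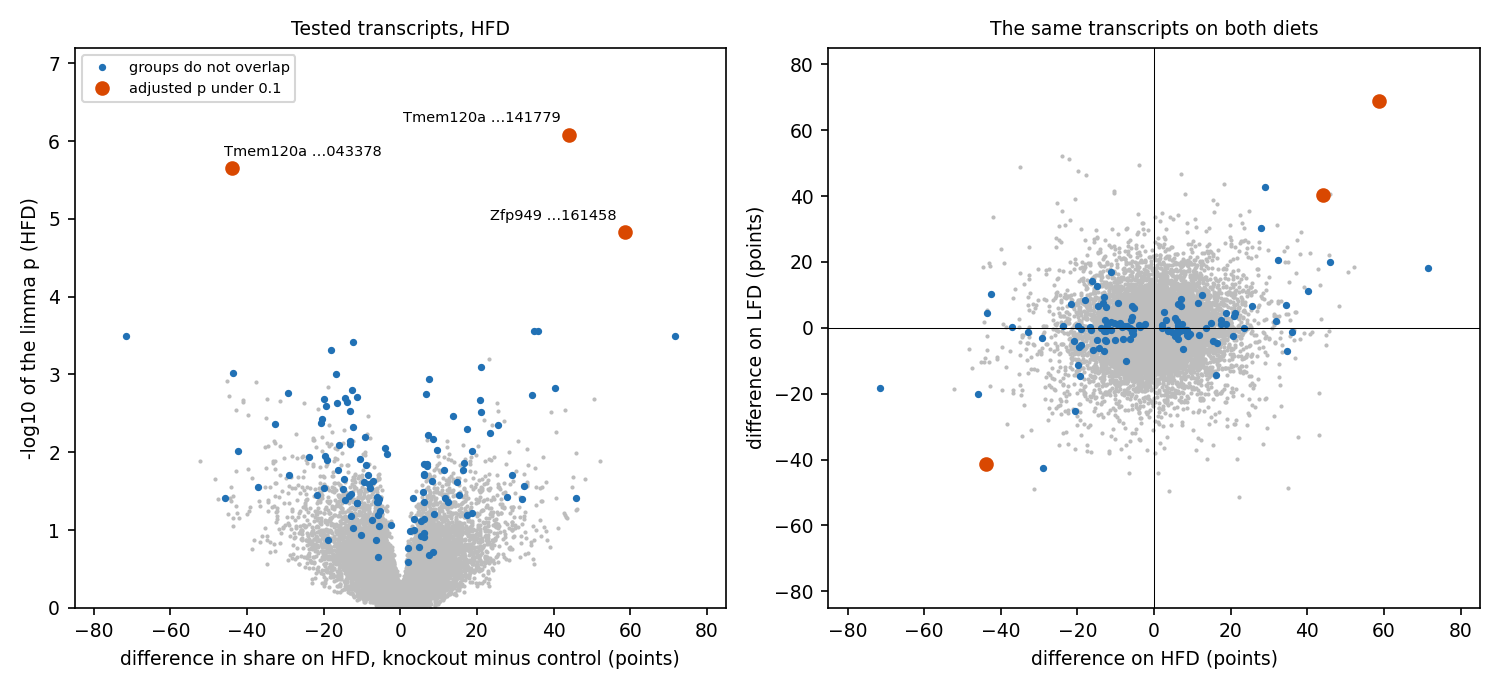
Difference in mean share on HFD (knockout minus control, percentage points) against -log10 of the unadjusted limma p for the 17954 tested transcripts (left), and that difference against the one on LFD (right), with blue for groups without overlap, orange for called and grey for the rest. The 2 Tmem120a transcripts and Zfp949 ENSMUST00000161458 are the only points past the threshold of adjusted p under 0.1, and each lies on the same side of 0 on both diets.

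How small a change could be seen depended on the level of the gene. The median SD of a share within a group was 13.1 points for transcripts of genes at 5 to 10 TPM, 10.7 points at 10 to 20 TPM, 8.2 points at 20 to 50 TPM, 6.48 points at 50 to 100 TPM and 5.45 points above 100 TPM. The median absolute difference between HFD groups followed the same order, from 5.57 points in the lowest band to 2.16 points in the highest. Differences of at least 10 points were therefore common, in 3102 transcripts, and those of at least 30 points were found in 163. Of all tested HFD values 12.9% were exactly 0. Changes of a few points in most genes were not detectable at this depth and number of mice.

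**Figure D4:**
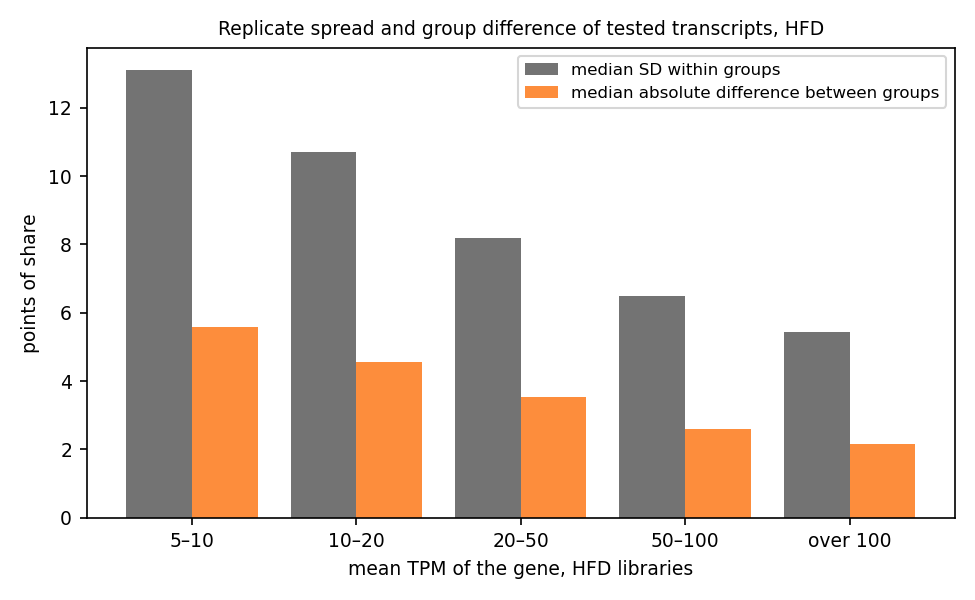
Median within-group SD of the transcript share and median absolute difference between knockout and control on HFD, both in percentage points, for 5 bands of mean gene TPM. Both fall with the level of the gene, and the SD exceeds the difference in every band.

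The largest differences without overlap outside the called genes belonged to 18 genes, and none passed the test (absolute differences of 23.5 to 71.6 points, adjusted p from 0.8298 to 0.9935). They are described by value only. Of the 18, 13 had a mean level under 10 TPM, 11 differed in the same direction on LFD, and in all 18 the LFD groups overlapped. E2f5, a cell-cycle transcription factor of the E2F family, had the largest. Its transcript ENSMUST00000029069 took 17.7%, 8.16%, 17.6%, 11.1% and 13.6% in control HFD libraries, 26.0% in knockout HFD library 17 and 100% in the 4 other knockout HFD libraries. On LFD the same E2f5 transcript averaged 29.5% in controls and 47.6% in knockouts, with values from 8.23% to 53.0% and from 24.1% to 100%. Without knockout HFD library 17, which stood apart from its group, the E2f5 difference was 86.4 points and passed the test (limma, adjusted p = 0.000168). The 4 knockout values left were all 100% and had no spread, so no conclusion is drawn from this pass. Without any 1 of the other 9 HFD libraries the difference did not pass (limma, adjusted p of 0.777 or more).

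Hlf, of the PAR family of circadian output factors, had a transcript (ENSMUST00000043658) at 6.17%, 0%, 7.29%, 0% and 0% in control and 23.1%, 42.4%, 60.6%, 45.0% and 21.6% in knockout HFD libraries, but 9.03% and 7.6% on average on LFD. The Hlf effect differed between diets at an unadjusted interaction p of 0.0001891, which did not survive adjustment (0.9999), and it passed the HFD test when all 20 libraries shared 1 fit (adjusted p = 0.0531). Klf15, a Krüppel-like factor of nutrient metabolism, has 2 transcripts with different first exons and the same 1245 coding bases. Its ENSMUST00000032174 took 69.9%, 56.5%, 73.4%, 100% and 62.1% in control and 53.3%, 32.4%, 47.0%, 34.3% and 49.7% in knockout HFD libraries. The LFD means of that Klf15 transcript were 86.6% and 43.9% (limma, unadjusted p = 0.02127), in the same direction but with knockout values from 0% to 86.0%. Sox6 ENSMUST00000166877 averaged 70.3% in control and 33.2% in knockout HFD libraries and 66.8% and 67.1% on LFD. Zscan21 ENSMUST00000062350 averaged 34.6% and 1.81% on HFD and 14.5% and 13.1% on LFD, and without control HFD library 13, at 86.2%, its HFD difference moved from -32.8 to -19.9 points.

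Among the other genes of this kind, Exoc7, which encodes a subunit of the exocyst that tethers secretory vesicles, and Klf15 were the 2 of 18 with an unadjusted p under 0.05 on LFD. Exoc7 ENSMUST00000106411 took 31.7%, 41.3%, 45.2%, 36.0% and 36.3% in control and 50.7%, 100%, 80.9%, 51.5% and 47.0% in knockout HFD libraries, and averaged 42.4% and 72.7% on LFD (unadjusted p = 0.03488). Transcripts of 1110051M20Rik (ENSMUST00000102594, 2.59% in control and 37.4% in knockout), 6330416G13Rik (2.99% and 35.3%), Rabl2 (a Rab-like GTPase, 36.4% and 76.7%), Adam15 (a membrane metalloprotease, 4.48% and 29.9%) and Mtap2 (a microtubule-associated protein, 22.7% and 46.2%) were higher in all knockout HFD libraries. On LFD the 1110051M20Rik transcript averaged 13% and 5.91%, the reverse order, and the Mtap2 transcript averaged 29.8% and 29.6%. The LFD means of 6330416G13Rik, Rabl2 and Adam15 kept the HFD order. Transcripts of Klhl4 (55.5% and 12.0%), 8430410A17Rik (63.8% and 21.3%), Il17rc (a subunit of the interleukin-17 receptor, 31.2% and 1.88%) and Crybg3 (81.9% and 58.1%) were lower in all knockout HFD libraries. On LFD those of Klhl4 (18.3% and 22.6%) and 8430410A17Rik (30.2% and 40.5%) had the reverse order. The Crybg3 transcript averaged 68.9% and 69.4% on LFD, and that of Il17rc kept the HFD order (28.2% and 25.0%). Golph3l (100% and 54.1%) and Trdn, the triadin of muscle calcium release (31.0% and 62.7%), were measured in only 3 control and 4 knockout HFD libraries because the gene was under 1 TPM in the rest. The Trdn gene level averaged 1.55 TPM in control and 10.8 TPM in knockout HFD libraries, so Trdn met the 5 TPM rule only through the knockouts. Without knockout HFD library 19 the Golph3l difference moved from -45.9 to -27.8 points, and without knockout HFD library 18 that of 6330416G13Rik moved from 32.3 to 16.1 points.

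Tropomyosins bind along actin filaments, and their genes use mutually exclusive exons in skeletal muscle and in other tissues. The exon pair of Tpm2 is shown because the shares of both tropomyosin genes differed widely between libraries. The exons lie on the minus strand of chromosome 4 (NCBIM37), at chr4:43531516-43531591 in ENSMUST00000107913 and at chr4:43531875-43531950 in ENSMUST00000107914, each is the sixth of 9 exons and 76 bases long, and their bases are identical at 53.9% of positions. Capitals mark the exon and lower case 10 bases of each neighbouring intron.
Tpm2 exon in ENSMUST00000107913: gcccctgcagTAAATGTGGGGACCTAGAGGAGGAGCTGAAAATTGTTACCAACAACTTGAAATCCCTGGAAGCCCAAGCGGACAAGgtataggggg
Tpm2 exon in ENSMUST00000107914: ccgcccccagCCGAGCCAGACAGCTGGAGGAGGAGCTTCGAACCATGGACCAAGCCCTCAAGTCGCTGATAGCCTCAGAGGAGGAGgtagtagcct

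Tpm1 ENSMUST00000113685 took 2.93%, 4.35%, 0.843%, 0% and 4.54% in control HFD libraries and 78.7%, 25.3%, 36.5%, 37.4% and 7.24% in knockout HFD libraries. The groups did not overlap, but the knockout values spread widely and limma did not call it (2.53% against 37.0%, adjusted p = 0.9935), whereas edgeR did (adjusted p = 0.01035). Tpm2 ENSMUST00000107913 took 2.21%, 13.9%, 2.35%, 3.39% and 7.79% in control and 70.1%, 20.5%, 68.8%, 56.4% and 9.98% in knockout HFD libraries, and the lowest knockout value lay under the highest control value. This Tpm2 transcript was likewise called by edgeR (adjusted p = 0.0278) and not by limma. The summed TPM of the 15 muscle fibre markers, which include neither tropomyosin gene, was 82.0, 129, 67.1, 47.7 and 73.6 in the same control libraries and 1950, 470, 1320, 1070 and 120 in the knockout ones. All 15 markers had a higher mean in knockout HFD libraries, the knockout library with the highest marker sum had the highest Tpm1 share, and the one with the lowest sum had the lowest Tpm1 and Tpm2 shares.

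On LFD the marker sum was highest in control library 5 (4350 TPM), where Tpm1 ENSMUST00000113685 took 74.3%, and it was 122, 74.7, 352 and 222 TPM in control libraries 1 to 4, where that Tpm1 transcript took 9.06%, 0%, 37.4% and 34.6%. In knockout LFD libraries 6 to 10 the sum was 938, 636, 123, 1340 and 73.4 TPM and the Tpm1 share 60.4%, 53.2%, 11.1%, 65.4% and 0.341%. The Tpm1 share averaged 31.1% in control and 38.1% in knockout LFD libraries. The part of muscle RNA in the HFD difference was not tested. Within the fast troponin T gene Tnnt3, a muscle gene with 24 transcripts, ENSMUST00000074187 took 3.86% in control and 10.5% in knockout HFD libraries without overlap, over 4 control libraries because the gene was under 1 TPM in control HFD library 15, and the sign turned with that library kept (-12.6 points). The Tnnt3 gene level averaged 4.71 TPM in control and 331 TPM in knockout HFD libraries, so Tnnt3 met the 5 TPM rule only through the knockouts.

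**Figure D5:**
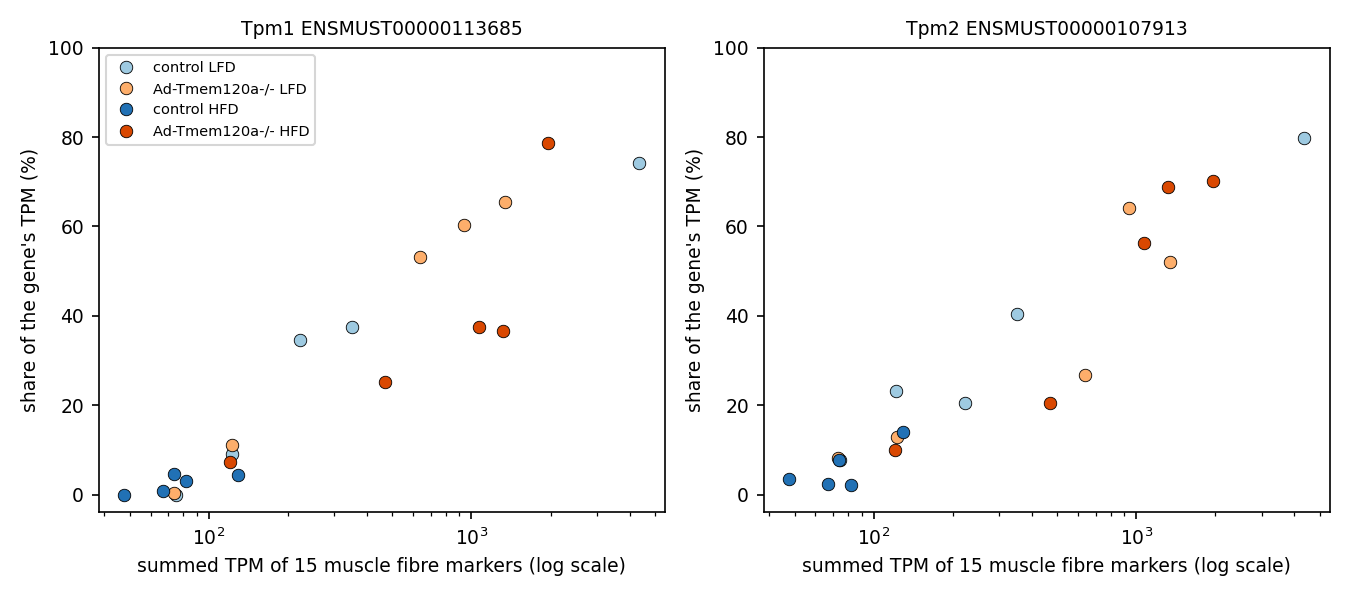
Shares of Tpm1 ENSMUST00000113685 and Tpm2 ENSMUST00000107913 in percent against the summed TPM of 15 muscle fibre markers (log axis) in the 20 libraries, coloured by group and diet. Of the 8 libraries with sums of 470 TPM or more, 7 were knockout libraries and 1 was control LFD library 5, and their Tpm1 shares were 25.3% or more, while control LFD libraries 3 and 4 had shares of 37.4% and 34.6% at sums of 352 and 222 TPM.

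No gene with known adipocyte isoforms had a share that passed the test, and most differences were smaller than the spread between mice. Pparg2, the adipocyte form with its own first exon (ENSMUST00000000450, 1515 coding bases), took 58.7%, 52.1%, 53.5%, 54.7% and 53.0% of Pparg in control HFD libraries and 52.5%, 58.2%, 54.4%, 60.7% and 56.4% in knockout HFD libraries, and Pparg1 (ENSMUST00000171644, 1425 coding bases) took the rest. The ranges overlapped almost whole, at 54.4% ± 2.56 and 56.5% ± 3.21 (exact permutation test, p = 0.302; limma, adjusted p = 0.9935). Tmem120b, the paralog of the deleted gene, had its main transcript ENSMUST00000111619 at 67.9% ± 8.29 in control and 71.6% ± 9.54 in knockout HFD libraries (exact p = 0.54) and its ENSMUST00000067505 at 22.9% and 21.9%. Lpin1, which encodes the phosphatidate phosphatase lipin 1, had 91.6% and 88.9% in ENSMUST00000067124 and 5.38% and 7.32% in ENSMUST00000048538, which has 1 exon fewer. The tested transcripts of Lmna (nuclear lamins A and C), Srebf1 and Mlxipl (lipogenic transcription factors) and Acly (ATP citrate lyase) had differences from -7.54 to 6.24 points, with adjusted p from 0.9935 to 0.999.

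Pyruvate kinase and the insulin receptor are textbook cases of exon choice, and their exons are shown with the measured shares. The gene listed as Pkm2 has a pair of mutually exclusive coding exons of 167 bases on the plus strand of chromosome 9 (NCBIM37), the upstream one at chr9:59522836-59523002 in ENSMUST00000163694, the form of muscle and brain, and the downstream one at chr9:59523375-59523541 in ENSMUST00000034834, the form of many proliferating cells. They are identical at 61.7% of positions. Insr has a coding exon of 36 bases on the minus strand of chromosome 8 (chr8:3181702-3181737), held by ENSMUST00000165872 and skipped in ENSMUST00000091291. Capitals mark the exon in each.
Pkm2 exon in ENSMUST00000163694: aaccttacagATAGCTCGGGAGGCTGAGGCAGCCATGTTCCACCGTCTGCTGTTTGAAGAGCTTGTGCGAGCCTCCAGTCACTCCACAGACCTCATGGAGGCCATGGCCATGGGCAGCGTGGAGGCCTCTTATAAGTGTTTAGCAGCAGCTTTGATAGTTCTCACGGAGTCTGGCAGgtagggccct
Pkm2 exon in ENSMUST00000034834: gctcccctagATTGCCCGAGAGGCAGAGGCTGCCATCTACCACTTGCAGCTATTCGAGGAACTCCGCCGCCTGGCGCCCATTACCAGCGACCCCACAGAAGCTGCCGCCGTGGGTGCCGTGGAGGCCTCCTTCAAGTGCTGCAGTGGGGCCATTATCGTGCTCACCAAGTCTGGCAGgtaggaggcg
Insr exon in ENSMUST00000165872: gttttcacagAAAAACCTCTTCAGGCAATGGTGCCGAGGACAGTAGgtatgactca

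ENSMUST00000163694 of Pkm2 took 87.3% ± 3.75 in control and 90.5% ± 2.78 in knockout HFD libraries and ENSMUST00000034834 the remaining 12.7% and 9.5% (exact permutation test, p = 0.183). On LFD the Pkm2 shares were 87.8% and 87.7% for the former. The Insr transcript with the 36-base exon, a fragment of 672 bases, took 26.5% ± 8.96 in control and 28.6% ± 5.05 in knockout HFD libraries (exact p = 0.667). On LFD the Insr transcript took 31.4% ± 4.3 and 20.3% ± 6.54 (exact p = 0.0238; limma, adjusted p = 0.9682), a lower knockout share that did not pass the test across all transcripts.

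Lists of related genes gave few transcripts without overlap. Of 81 tested transcripts in 27 adipocyte isoform genes, 0 were called and 0 lacked overlap, against 3 called and 121 without overlap (0.674%) among all 17954, with a median absolute difference of 2.34 points against 3.92 points over all tested transcripts, and 1.23% had an unadjusted p under 0.05 against 3.68% of all. Lipid storage and oxidation genes had 0 called and 0 without overlap among 63. Both this list and that of adipocyte isoform genes were too small for a 0 to be told from 0.674%. Nuclear envelope genes had 2 called and 3 without overlap among 56 (5.36% against 0.674% of all), the 2 called being those of Tmem120a, and the other belonged to Syne2, which encodes the outer nuclear membrane protein nesprin-2. Syne2 ENSMUST00000143031 took 37.7% ± 2.88 in control and 43.8% ± 0.841 in knockout HFD libraries (adjusted p = 0.9935). Genes that switch isoforms in muscle had 3 without overlap among 98 (3.06% against 0.674% of all), those of Mef2d, Tnnt3 and Tpm1. None of the 98 was called and 11.2% had an unadjusted p under 0.05, in the libraries whose muscle marker sums differed as given above. Tnnt3 met the 5 TPM rule only through its knockout libraries, and no conclusion is drawn from the 3.06%. Mef2d ENSMUST00000119251 averaged 30% and 17.6%, with knockout HFD library 18 at 0%, and its difference moved from -12.4 to -8.01 points without that library.

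The 3 remaining lists had 1 transcript each without overlap and none called. Splicing factor genes had 1 transcript without overlap among 219 (0.457% against 0.674% of all), of Son, a splicing cofactor of nuclear speckles, at 9.4% ± 1.12 in control and 11.4% ± 0.286 in knockout HFD libraries. Genes spliced differently in epithelium had 1 among 75 (1.33%), that of Exoc7. Translation genes had 1 among 26 (3.85%), of Eif4a2, an RNA helicase of translation initiation. The nonsense-mediated decay transcript of Eif4a2 (ENSMUST00000123413) took 7.2%, 7.34%, 5.94%, 8.62% and 9.24% in control and 4.69%, 2.43%, 5.13%, 2.7% and 5.35% in knockout HFD libraries. Its LFD means were 4.19% and 4.45%, and it was not called (adjusted p = 0.9935). The Eif4a2 gene level was 314 ± 43.5 TPM in control and 539 ± 65.5 TPM in knockout HFD libraries (exact permutation test, p = 0.00794). With a higher total, the lower share need not mean less of this transcript.

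No class of transcripts passed the test for its share. Protein-coding transcripts took 77.1% ± 1.58 of the TPM of these genes in control and 75.7% ± 1.9 in knockout HFD libraries, retained-intron transcripts 8.12% ± 0.576 and 8.67% ± 0.588, nonsense-mediated decay transcripts 2.7% and 2.87%, and processed transcripts, which have no reading frame, 8.23% and 8.48%. The exact permutation test gave p of 0.23, 0.198, 0.198 and 0.492 for the 4 classes (adjusted p of 0.307 for the first 3 and 0.492 for the last). On LFD retained-intron transcripts took 8.91% ± 0.702 in control and 9.97% ± 0.777 in knockout libraries (exact p = 0.0714, adjusted p = 0.286). Of the 2776 retained-intron transcripts tested on HFD, 1590 (57.3%) had a higher mean share in knockouts, as did 55.1% of processed, 53.0% of nonsense-mediated decay and 47.2% of protein-coding transcripts, a description with no test.

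The transcript with the highest mean TPM, which need not have the highest mean share, differed between the HFD groups in 672 of 7104 genes (9.46%). It differed between the LFD groups in 648 (9.12%). The same exchange was seen on both diets in 81 genes, 12.1% of the HFD and 12.5% of the LFD ones. A margin in mean share of at least 20 points between both transcripts in each HFD group was found in 34 genes, led by E2f5 (70.4 points), Tti1 (44.0 points), Lrig1 (41.4 points), Klhl4 (38.6 points) and Egr2 (37.2 points). The leading control transcript had groups without overlap in 13 of the 672 genes. These counts carry no test.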

How the data were processed

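iWAT RNA was sequenced by the authors from 20 mice, 5 in each of 4 groups taken from the sample titles. The authors deposited TPM and estimated counts per transcript made with Salmon (0.13.1); STAR (2.5.3) is also listed in the submitters' processing notes. TPM divides by effective transcript length and library total, so a share within a gene is free of library size but depends on how reads were divided among overlapping transcripts, and that uncertainty is not in the p-values. Of 96533 transcripts 94334 (97.7%) matched the Ensembl 65 annotation of NCBIM37, which gave genes, exons and classes, and the others were not used. The study's methods name a later Ensembl release of the same build for Salmon, so structures are those of the release used here. Deposited estimated counts served for depth and, rounded, for edgeR.

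Shares were arcsine-square-root transformed and tested in limma (3.58.1, empirical Bayes, trend on log2 mean gene TPM; R 4.3.3) with Benjamini-Hochberg adjustment over all tested transcripts and calls at an adjusted p under 0.1. A transcript was tested if its mean HFD share was 5% to 95%, using libraries with the gene at 1 TPM or more and at least 3 of them per group. For a single value per library an exact permutation test, two-sided, was used (scipy 1.17.1; Python 3.11.15, numpy 2.4.6, pandas 2.3.3). Alternatives were log2 ratios to the rest of the gene (pseudocounts 0.5 and 0.1), shares of estimated counts, other filters, robust and 20-library fits, Simes p per gene, edgeR (4.0.16, diffSpliceDGE) and leaving out each library.

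Named genes were the called ones, genes with the largest differences without overlap up to 20 genes in all, Tmem120a, Tmem120b and 8 adipocyte isoform genes, and list members called or without overlap. Tpm2, Stxbp3a, Snx14 and the genes with exchanged leading transcripts were named after their values were seen. Members and lists were chosen with earlier results of these data known. P-values set a group difference against the spread between these libraries, and limma also draws on the spread of the other transcripts. The study used littermate controls, but the sample titles name no litter or pair, so no paired analysis was possible.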

Additional observations from a re-analysis of the deposited data

Results flagged for a closer look

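In 8 of 58 groups of 4 or 5 libraries examined, over 26 named transcripts and 4 transcript classes, 1 library stood apart by Dixon's criterion. Its nominal rate by chance is about 1 in 20 groups. That rate does not apply where the other libraries are tied at 0% or 100%, since any differing value is then flagged. This was so for E2f5, 1110051M20Rik, Zscan21 and Il17rc, so the 8 cannot be set against that rate. Control HFD library 14 stood at 28.6% for Zfp949 ENSMUST00000161458, with the other 4 between 0% and 7.36%, and at 100% for Sox6 ENSMUST00000166877, with the others between 61.2% and 65.8%. Control HFD library 13 stood at 13% for 1110051M20Rik, with the others at 0%. Knockout HFD library 17 stood at 26.0% for E2f5 with the others at 100%, at 9.07% for Zscan21 with the others at 0%, and at 9.39% for Il17rc with the others at 0%. Knockout HFD library 18 stood at 100% for 6330416G13Rik, with the others between 10.5% and 26.8%, and at 0% for Mef2d ENSMUST00000119251, with the others between 21.1% and 23.6%.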

How the results depend on the processing

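The count of called HFD transcripts was 3 in the analysis reported, 0 with log2 ratios at a pseudocount of 0.1, 37 with edgeR, 1 gene with Simes p-values, and 1 to 6 with 1 library left out (1 without knockout HFD library 20, 6 without knockout HFD library 19). Of the 37 edgeR calls, 35 were at exactly 0 in 4 or more HFD libraries, 0 were also called by limma, and they were 0.206% of those tested. The LFD count was 4, against 0 with the pseudocount of 0.1, 2 with a gene minimum of 20 TPM, 53 with edgeR and 2 to 7 with 1 library left out (2 without any of control LFD libraries 2 to 5, 7 without knockout LFD library 6 or 7). The interaction count was 0, against 101 with edgeR, and 0 with any 1 library left out. Class shares and the count of exchanged leading transcripts stayed within the spread or 1.5 times of the reported values.

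Tmem120a ENSMUST00000141779 and ENSMUST00000043378 lost their HFD calls with the pseudocount of 0.1 and in edgeR, the latter also without knockout HFD library 20. Zfp949 ENSMUST00000161458 lost it in both of these and with the pseudocount of 0.5, estimated counts, a share filter of 1% to 99%, no share filter and the robust fit. None of the 3 called differences changed sign; 15 of the 58 uncalled named ones did. Turned values with the pseudocounts of 0.5 and 0.1 (log2) were 0.0401 and 0.0405 for Tmem120b ENSMUST00000067505, -0.0511 and -0.436 for Lpin1 ENSMUST00000048538, -0.0516 and -0.184 for Mlxipl ENSMUST00000153519, -0.13 and -0.0453 for Mlxipl ENSMUST00000154840, and -0.55 (0.5 only) for Tnnt3. Others were 0.569 points (estimated counts) and 0.0308 (edgeR) for Lmna ENSMUST00000029699, 0.0786 (edgeR) for Srebf1 ENSMUST00000154620, and -12.6 points for Tnnt3 with every library kept. With 1 library left out, differences crossed 0 for Acly (-1.79 to 3.35, -3.21 to 0.371, -0.0483 to 8.31 and -1.44 to 5.17 points), Insr (-4.51 to 0.946 and -1.16 to 4.29), Lmna (-3.52 to 0.637), Lpin1 (-5.0 to 0.692), Mlxipl (-2.33 to 11.6, -1.96 to 7.22 and -1.58 to 4.06), Srebf1 (-6.27 to 0.792) and Tmem120b (-4.28 to 2.73). The causes were not tested. With 5 mice per group and a median within-group SD of 13.1 points in genes of 5 to 10 TPM, small changes in such genes were not detectable.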
